A study of Rattus norvegicus with 8 samples.

Results

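The tissue inhibitors of metalloproteinases (TIMPs) Timp1, Timp2, Timp3, and Timp4 and the membrane-anchored inhibitor Reck were taken by gene symbol from RNA sequencing of rat Achilles tendons. They are 5 of the 32883 genes in the count table, and all 5 were among the 13937 genes that a filter on low counts kept. The right Achilles tendons of 8 male wild-type (WT) SD rats, aged 8 to 10 weeks, were compared. Of these, 4 rats ran for 1 hour on a treadmill at a 10° incline and 20 m/min and were killed 12 hours later (12 hours p.r., post-running), after short training before the run and with airflow and mild electric stimuli to keep them running. The other 4 stayed in their cages without running and were killed at the same time (naïve control, NC). Each library came from the tendon tissue of 1 rat, and rats are named here by group and replicate number, as in NC rat 2 or running rat 3.

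TIMPs are small secreted proteins that occupy the active site of matrix metalloproteinases (MMPs), the enzymes that cut collagen and other matrix proteins, and a tendon's collagen turnover depends in part on the balance of the enzymes with their inhibitors. Timp3 is bound to the matrix and also inhibits several ADAM and ADAMTS proteases, which shed cell surface proteins and cut proteoglycans. Timp2 has a second role as a cofactor with which Mmp14 activates pro-Mmp2, whereas Reck is held at the cell surface by a lipid anchor and also takes part in Wnt7 signaling.

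The tendons expressed much more of the secreted inhibitors Timp1, Timp2, and Timp3 than of Timp4 and Reck, and Timp4 was the member that differed most between the groups, at about 0.558 times its NC level in the running rats. Its difference passed an adjusted p threshold of 0.05 with DESeq2 but not with the quasi-likelihood test of edgeR, and the other 4 members passed with neither. Levels are given as FPKM, the reads of a gene per kilobase of its length and per 1e6 reads after scaling, which allow genes to be compared. The scaling of FPKM per rat matched DESeq2 size factors rather than total reads. Differences are log2 fold changes of 12 hours p.r. over NC, fitted by edgeR to the counts of all 13937 genes with the Benjamini-Hochberg adjustment over all of them. The tissue was sequenced in bulk, so fewer cells of a type and less RNA per cell cannot be told apart.

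The reads counted per rat ran from 8385779 to 12951397 in the NC group and from 7350509 to 10648648 at 12 hours p.r., and the median of the running group was 0.713 times that of NC. All 8 tenocyte markers were detected, with summed levels of 27363 to 40831 CPM (counts per 1e6 reads after scaling) in NC and 16273 to 48542 CPM at 12 hours p.r. At an unadjusted p under 0.05, 3 of them (37.5%, beside 9.51% of all 13937 genes tested) were higher in the running rats, the transcription factor genes Scx and Mkx and the matrix gene Thbs4. Running rat 3 stood apart, where summed skeletal muscle markers reached 48731 CPM while the other 7 rats ranged from 2563 to 9604 CPM. In it Acta1, Ckm, Myh1, Tnnt3, and Mylpf were the highest of all rats. Mb (283 CPM), Myh7 (51.2 CPM), and Tnnt1 (30.5 CPM) were instead below every NC rat. Its tenocyte and leukocyte marker sums were the lowest of all. Among tenocyte markers, Col1a1 (11092 CPM), Col1a2, Fmod, and Comp were lowest in it. Its Scx level (45.2 CPM) was above every NC rat, and Tnmd, Mkx, and Thbs4 lay within the NC range. The leukocyte marker sum ran from 929 CPM in NC rat 2 to 3958 CPM in NC, and from 660 CPM in running rat 3 to 2658 CPM at 12 hours p.r. The cartilage and bone marker sum was highest in NC rat 3 (1322 CPM) and running rat 1 (650 CPM), with a range of 79.7 to 331 CPM over the remaining 6. Of 6 endothelial markers tested, 2 were higher (Egfl7 and Tie1) and 1 was lower (Emcn) at an unadjusted p under 0.05, or 3 of 6 in all, beside the same 9.51% of all genes. No gene of the muscle, adipocyte, pericyte, leukocyte, cartilage and bone, or erythrocyte lists passed that threshold, and edgeR called none of these marker genes after adjustment while DESeq2 called Egfl7.

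Across all genes, edgeR called 1 of 13937 at an adjusted p under 0.05 (0.00718%), which was Enc1, a gene of an actin-binding protein that was no longer called when any 1 of the 8 rats was left out, and 1326 (9.51%) at an unadjusted p under 0.05. DESeq2 called 96 of 14421 genes (0.666%) after adjustment. Of the 5 members, edgeR called 0 after adjustment and 1 (Timp4) without it, and DESeq2 called 1 (Timp4). The median log2 fold change of the 5 was −0.08, beside 0.02 over all genes tested.

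**Figure D1:**
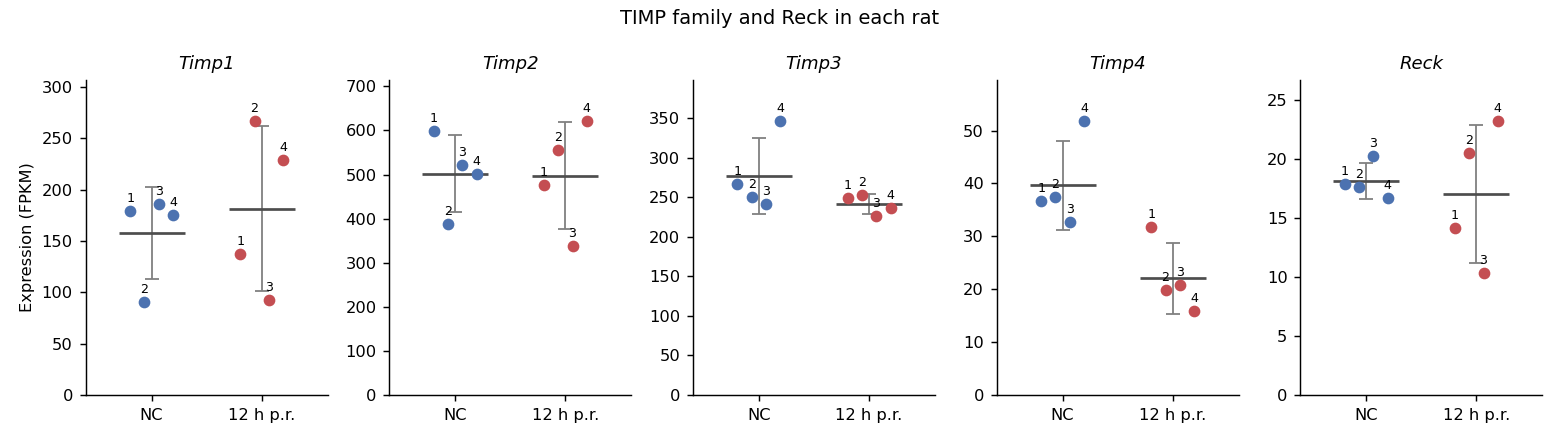
FPKM of each gene in each rat (y axes start at 0 and differ between panels), with NC rats in blue and 12 hours p.r. rats in red. Points carry the replicate number, horizontal bars are group means and error bars are the SD (n = 4). The groups are apart only in the Timp4 panel, where the lowest NC rat is at 32.6 FPKM and the highest running rat at 31.7 FPKM.

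Timp2, the inhibitor that also serves pro-Mmp2 activation at the cell surface, had the highest level of the family in every rat. Its FPKM was 599, 388, 522, and 500.1 in NC rats 1 to 4 and 476, 555, 338, and 622 in running rats 1 to 4. The lowest rats of their groups were NC rat 2 and running rat 3, and the groups overlapped almost fully. Its means (± SD, n = 4 rats each, as for all other means) were 502 ± 87.1 FPKM in NC and 498 ± 122 FPKM at 12 hours p.r., nearly the same. The log2 fold change was −0.0065 with an SE of 0.21 and a 95% interval of −0.48 to 0.47 (edgeR adjusted p = 0.996). Its sign turned without running rat 1 (0.011), running rat 3 (0.14), NC rat 1 (0.089), or NC rat 3 (0.012), so no direction can be given for Timp2.

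Timp3, the matrix-bound inhibitor of ADAM and ADAMTS proteases as well as MMPs, came next. Its FPKM was 267, 251, 242, and 347 in NC rats 1 to 4 and 249, 253, 226, and 237 in running rats 1 to 4. NC rat 4 was far above the other 7 rats, which lay between 226 and 267 FPKM, and 2 running rats were below every NC rat. Its means were 277 ± 47.8 FPKM in NC and 241 ± 12.4 FPKM at 12 hours p.r. The log2 fold change was −0.19 ± 0.14 (SE), with a 95% interval of −0.50 to 0.12 (edgeR adjusted p = 0.696). Without NC rat 4 it was −0.06. The interval thus covered no change as well as a level 0.706 times that of NC.

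Timp1, a secreted inhibitor whose gene is known for its response to growth factors and cytokines, ranked below Timp2 and Timp3 in both groups. Its FPKM was 179, 90.7, 186, and 175 in NC rats 1 to 4 and 138, 267, 92.0, and 229 in running rats 1 to 4. Running rats 2 and 4 were above every NC rat, whereas running rat 3 was level with NC rat 2, the lowest NC rat, so the groups overlapped and the running group held the highest values. Group means were 158 ± 44.9 FPKM in NC and 181 ± 80.6 FPKM at 12 hours p.r. The log2 fold change was 0.21 ± 0.34 (SE) with a 95% interval of −0.57 to 0.98 (edgeR adjusted p = 0.879). Its sign turned without running rat 2, to −0.04. Without NC rat 2 it was 0.02, and without running rat 3 it was 0.43.

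Timp4, a secreted inhibitor known for its narrow tissue distribution, with high levels in heart, was the least expressed of the 4 TIMPs. Its FPKM was 36.6, 37.5, 32.6, and 51.8 in NC rats 1 to 4 and 31.7, 19.8, 20.8, and 15.9 in running rats 1 to 4. Every running rat was below every NC rat, which held for 355 of 13937 genes (2.55%), although running rat 1 was close to NC rat 3. Mean levels were 39.6 ± 8.40 FPKM in NC and 22.0 ± 6.77 FPKM at 12 hours p.r. The log2 fold change was −0.84 ± 0.22 (SE), a level 0.558 times that of NC with a 95% interval of 0.394 to 0.790.

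For this difference of Timp4, edgeR gave an unadjusted p of 0.00424 and an adjusted p of 0.422, with rank 139 of the 13937 genes by p. DESeq2 gave a log2 fold change of −0.85 and an adjusted p of 0.0467, past the threshold of 0.05. In simulated counts, 23 of 181 genes called by DESeq2 were unchanged, against 6 of 138 called by edgeR. The exact 2-sided permutation test of log2(CPM + 0.5) over the 8 rats gave p = 0.0286, the smallest value that 4 rats against 4 allow. Any gene whose groups do not overlap reaches this value, so it adds nothing to the lack of overlap given above. Of the 13937 genes, 490 had every running rat above every NC rat and 355 had every running rat below. Of all genes tested, 1.44% had a lower log2 fold change than Timp4. Leaving out 1 rat at a time, the log2 fold change of Timp4 stayed between −1.07 (without running rat 1) and −0.69 (without NC rat 4). Without running rat 3, the one with the highest muscle marker sum, it was −0.81. Across all 18 alternatives of processing and of rats left out, the adjusted p for Timp4 ran from 0.0467 to 0.773.

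Reck, the membrane-anchored inhibitor, had the lowest level of the family. Its FPKM was 17.9, 17.6, 20.2, and 16.7 in NC rats 1 to 4 and 14.1, 20.5, 10.3, and 23.2 in running rats 1 to 4. The running rats lay on both sides of the NC group, 2 above and 2 below all of its rats. Its group means were 18.1 ± 1.51 FPKM in NC and 17.0 ± 5.87 FPKM at 12 hours p.r. The log2 fold change was −0.08 ± 0.23 (SE) with a 95% interval of −0.59 to 0.43 (edgeR adjusted p = 0.931). It turned to 0.099 without running rat 3. The coefficient of variation over rats was 8.45% in NC and 34.4% at 12 hours p.r. for Reck, but 17.2% and 5.42% for Timp3, and no test of these spreads was run.

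**Figure D2:**
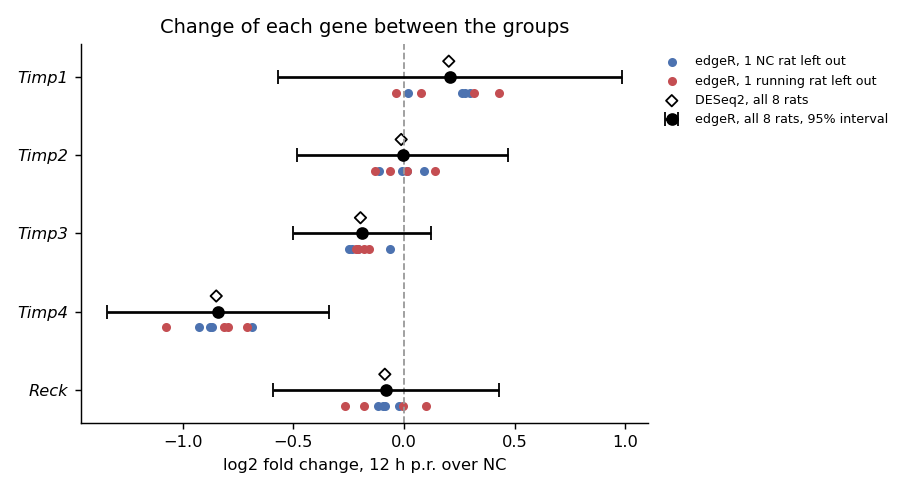
Log2 fold change of 12 hours p.r. over NC (x axis) for each gene, where black points are the edgeR estimate with its 95% interval, open diamonds are the DESeq2 estimate, and small points are edgeR estimates without 1 NC rat (blue) or 1 running rat (red). The interval of Timp4 (−1.34 to −0.34) lies below 0, and those of the other 4 genes include 0.

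Per gene length, the order of mean levels in NC was Timp2, Timp3, Timp1, Timp4, Reck. The ranges of neighbours in this order did not overlap in NC, and the ratios of the means were 1.82 for Timp2 over Timp3, 1.75 for Timp3 over Timp1, 3.98 for Timp1 over Timp4, and 2.19 for Timp4 over Reck. At 12 hours p.r. the order of the means was the same, but Timp3 was above Timp1 in 3 of 4 rats and Timp4 above Reck in 2 of 4 rats, and both pairs of ranges overlapped. In running rats 2 and 4, Reck was above Timp4, which occurred in no NC rat. The ratio of the means of Timp1 over Timp4 was 8.23 at 12 hours p.r.

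Within a rat, Timp4 was compared with each of the other members to leave aside what scales a whole library. Only the ratio over Timp3 had no overlap between the groups. The log2 ratio of Timp4 over Timp3 FPKM was −2.87, −2.74, −2.89, and −2.74 in NC rats 1 to 4 and −2.97, −3.68, −3.44, and −3.89 in running rats 1 to 4. Every running rat was below every NC rat, although running rat 1 (−2.97) was close to NC rat 3 (−2.89). The 4 NC rats lay close together (mean, −2.81 ± 0.08 SD against −3.50 ± 0.39 SD). Timp4 by itself already had no overlap between the groups, and how many other gene pairs have no overlap was not counted. The log2 ratios of Timp4 over Timp1, Timp2, and Reck overlapped between the groups, with 2 running rats below all NC rats in each. Of the summed FPKM of the 4 Timp genes, Timp4 made up 4.11 ± 0.87% in NC and 2.46 ± 1.00% at 12 hours p.r., with 3 running rats below every NC rat. The shares of the other 3 genes overlapped between the groups, with means of 51.4 and 52.6% for Timp2, 28.6 and 26.5% for Timp3, and 15.9 and 18.5% for Timp1. These ratios rest on the same counts as the tests of the single genes and were not tested by themselves.

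**Figure D3:**
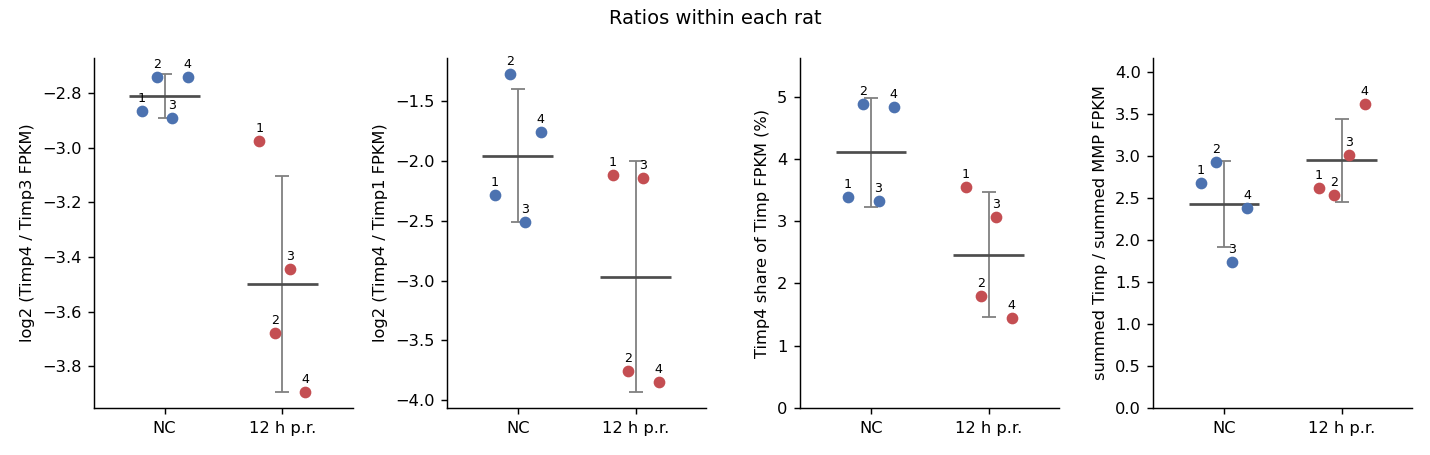
Ratios within each rat, from left to right the log2 ratio of Timp4 over Timp3 FPKM, the log2 ratio of Timp4 over Timp1 FPKM, the share of Timp4 in the summed Timp FPKM (%), and the summed Timp over the summed MMP FPKM, with NC in blue and 12 hours p.r. in red, points numbered by replicate, and bars for the mean and SD (n = 4). The groups do not overlap in the first panel only.

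RefSeq sequence (GRCr8 assembly) before the start is given for Timp4, the member that differed most, and for Timp2 and Timp1, which varied together. Capitals mark motif matches, and each run reads 5′ to 3′ on the strand of the gene. The run of Timp4 (chr4:149985351-149985454, minus strand) holds the 104 bases of its 250-base window that lie outside the annotated gene, that of Timp2 (chr10:104089215-104089464, minus strand) the full 250 bases before the start, and that of Timp1 (chrX:3771212-3771241, minus strand) 30 bases around an AP-1-like match 108 bases before the start, inside the annotated span of the gene.
Timp4: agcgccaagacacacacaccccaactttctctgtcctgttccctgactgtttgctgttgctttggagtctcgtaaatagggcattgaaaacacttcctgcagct
Timp2: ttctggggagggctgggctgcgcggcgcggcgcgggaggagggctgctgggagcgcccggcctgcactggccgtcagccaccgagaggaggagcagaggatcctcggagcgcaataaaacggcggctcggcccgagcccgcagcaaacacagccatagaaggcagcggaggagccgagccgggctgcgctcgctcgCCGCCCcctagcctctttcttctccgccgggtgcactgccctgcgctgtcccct
Timp1: cagtgggtggaTGAGTAAtgcgtccaggaa

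The 250 bases before the start of each of the 5 genes were searched on both strands for the AP-1 site TGANTCA, its variant TGAGTAA known from the Timp1 promoter, the TATA box TATAAA, the CCAAT box, the GC box GGGCGG, the cAMP response element TGACGTCA, and the E-box CACGTG, and no matches in the members overlapped. Timp4 held none of them. TGAGTAA occurred in Timp1 and in 2.38% of all 33469 rat promoters of this length. The GC box (30.5% of all promoters) occurred once in Timp1 and in Timp2 and 3 times in Timp3 and in Reck, and CCAAT (34.0%) occurred in Timp3 and Reck. TGANTCA (6.34%), TATAAA (12.9%), TGACGTCA (1.59%), and CACGTG (5.59%) matched in no member. Of the Timp4 window, 146 bases lay inside the annotated gene, as did all 250 bases of the Timp1 window. The window of Timp4 had 4 CpG and a GC content of 50.8%, beside medians of 5 and 51.2% over all promoters. The other 4 had more of both, with 27 CpG in Timp2, 23 in Timp3, 20 in Reck, and 9 in Timp1. A match describes the letters only and shows no bound factor.

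In the same assembly, Timp1, Timp3, and Timp4 each lie inside a synapsin gene (Syn1, Syn3, and Syn2), and Cep295nl lies inside Timp2 on the same strand. Timp1 and Timp4 are on the strand opposite to their host, and how the counting treated strand is not given in the sources used here. The hosts had few reads, 0 to 15 for Syn1, 0 to 4 for Syn3, and 6 to 62 for Syn2, against 257 to 1040 for Timp4. Syn2 had 36, 38, 19, and 62 reads in NC rats 1 to 4 and 20, 15, 20, and 6 in running rats 1 to 4, with a log2 fold change of −0.93 ± 0.52 (SE, edgeR adjusted p = 0.605). Cep295nl had 9 to 19 reads against 4736 to 12429 for Timp2, with a log2 fold change of −0.21 ± 0.30 (SE, edgeR adjusted p = 0.884). Even where it was highest, the Syn2 count was thus far below the Timp4 count of that rat, and only Syn2 and Cep295nl of these 4 genes passed the filter on low counts.

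The proteases that TIMPs inhibit gave the context of these levels. Of 22 MMP genes listed, 21 were in the table and 13 passed the filter, of which edgeR found 1 higher (Mmp24) and 1 lower (Mmp2) at an unadjusted p under 0.05, or 15.4% beside 9.51% of all genes, with 0 called after adjustment by edgeR or DESeq2. Their median log2 fold change was 0.14. The count was 1 without NC rat 3 or running rat 3 and 0 without NC rat 1 or NC rat 4.

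Mmp2, the gelatinase that Timp2 and Mmp14 help to activate, was the most abundant MMP. Its FPKM was 285, 158, 307, and 306 in NC rats 1 to 4 and 180.3, 198, 120.1, and 166 in running rats 1 to 4. NC rat 2 was within the running group, and the other 3 NC rats were above every running rat. The log2 fold change of Mmp2 was −0.66 ± 0.24 (SE, unadjusted p = 0.0223, edgeR adjusted p = 0.464). Mmp24, a membrane-type MMP, had a log2 fold change of 0.40 ± 0.17 (SE, unadjusted p = 0.0434, edgeR adjusted p = 0.507). The membrane-bound activator Mmp14 had a mean of 36.3 FPKM in NC and 35.9 FPKM at 12 hours p.r., and stromelysin Mmp3 had 35.2 and 42.9 FPKM, with 97.8 FPKM in running rat 2. The collagenase gene Mmp13 and the gelatinase gene Mmp9, which were picked out after their values were seen, were high in 2 rats alone. Mmp13 was at 42.5 FPKM in NC rat 3 and 19.2 FPKM in running rat 1, against 0.251 FPKM or less in the other 6. Mmp9 was at 34.8 and 27.1 FPKM in the same rats, against 0.356 FPKM or less. These were the rats with the highest cartilage and bone marker sums, whose part in these values was not tested.

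Summed over the 4 Timp genes, the level was 976 ± 146 FPKM in NC and 942 ± 202 FPKM at 12 hours p.r., and summed over the MMP genes it was 421 ± 126 and 326 ± 85.8 FPKM. The MMP sum held all 21 MMP genes in the table, also those that failed the filter. To this sum Mmp13 and Mmp9 added 42.5 and 34.8 FPKM in NC rat 3 and 19.2 and 27.1 FPKM in running rat 1. The ratios and shares that follow were not taken without Mmp13 and Mmp9. The ratio of the sums was 2.67, 2.93, 1.74, and 2.38 in NC rats 1 to 4 and 2.61, 2.54, 3.01, and 3.62 in running rats 1 to 4. More Timp than MMP transcript per length was thus present in every rat. The groups overlapped, with running rats 3 and 4 above all NC rats (means, 2.43 ± 0.51 and 2.94 ± 0.50). Mmp2 made up 63.2 ± 7.39% of the summed MMP level in NC and 51.6 ± 3.91% at 12 hours p.r., where 3 running rats were below every NC rat.

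The ADAM and ADAMTS proteases are mainly targets of Timp3. Of 28 genes, 27 passed the filter, and 1 was higher and 3 were lower at an unadjusted p under 0.05, or 14.8% beside 9.51% of all genes. Their median log2 fold change was 0.09, and all 4 were ADAMTS genes. Adamts8, a protease reported to cut proteoglycans, had 2.30, 2.30, 2.49, and 2.38 FPKM in NC rats 1 to 4 and 0.676, 0.519, 0.275, and 1.02 FPKM in running rats 1 to 4. The NC rats were close together and all running rats were below them. Its log2 fold change was −1.90 ± 0.33 (SE), with an edgeR adjusted p of 0.314 and a DESeq2 adjusted p of 2.61e-05, so that Adamts8, as Timp4, was called by DESeq2 and not by edgeR. The other 3 were Adamts9 (log2 fold change −0.32), Adamts18 (1.43), and Adamts19 (−2.20), the last 2 of them under 2 FPKM in every rat.

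The summed ADAM and ADAMTS level was 281 ± 6.24 FPKM in NC and 279 ± 17.5 FPKM at 12 hours p.r. It was close to the mean of Timp3 by itself in NC (277 FPKM) and above it at 12 hours p.r. (241 FPKM). The most abundant ADAM genes in NC were Adam15 (61.2 and 61.7 FPKM in NC and at 12 hours p.r.), Adam9 (36.3 and 33.9 FPKM), and Adam10 (26.2 and 27.9 FPKM). The most abundant ADAMTS genes in NC were Adamts2, the procollagen N-proteinase (29.7 and 29.8 FPKM), Adamts10 (20.1 and 21.4 FPKM), and Adamts1 (12.5 and 10.1 FPKM). Timp1, Timp2, and Timp3 were each above all of these genes in mean level in both groups.

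**Figure D4:**
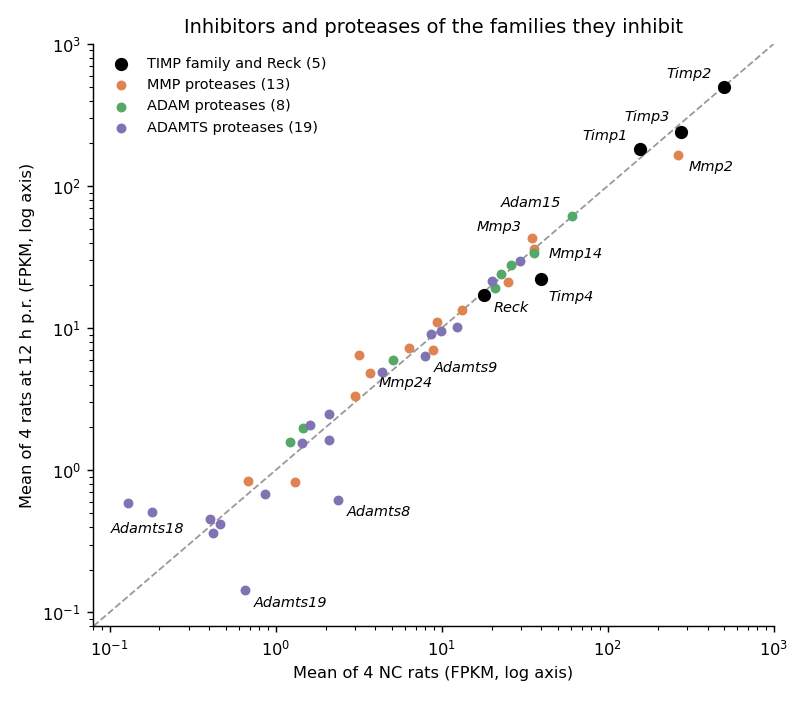
Mean FPKM of 4 NC rats (x axis) against the mean of 4 rats at 12 hours p.r. (y axis), both on log axes, for the 5 members (black) and the tested MMP (orange), ADAM (green), and ADAMTS (purple) genes, with equal levels on the dashed line. Timp2, Timp3, Timp1, and Mmp2 are the 4 most abundant genes shown, and Timp4 (39.6 and 22.0 FPKM) lies below the line.

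Other genes of the pathway were described from lists as well. Of 11 other extracellular protease inhibitors tested, such as serpins and cystatin C, 0 had an edgeR unadjusted p under 0.05, beside 9.51% of all genes. After adjustment edgeR and DESeq2 each called 0 of them, beside 0.00718% and 0.666% of all genes. The median log2 fold change of the 11 was −0.17, beside 0.02 over all genes tested. Of 7 tested genes for proteins that bind a TIMP or Reck, 1 (14.3%, beside 9.51% of all genes) was higher at an unadjusted p under 0.05, the integrin subunit gene Itga3, with 3.74 ± 0.91 FPKM in NC and 5.87 ± 1.01 FPKM at 12 hours p.r. in the means. Its log2 fold change was 0.65 ± 0.19 (SE, edgeR adjusted p = 0.433). Cd63, a tetraspanin that binds Timp1 at the cell surface, had means of 419 and 415 FPKM and a log2 fold change of −0.0067 (edgeR adjusted p = 0.994).

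By Pearson's r over the 8 rats, the members could be set in 2 patterns, though many other genes were closer to each member. Pearson's r of log2 CPM was 0.906 between Timp1 and Timp2, 0.805 between Timp2 and Reck, and 0.747 between Timp1 and Reck, whereas it was 0.727 between Timp3 and Timp4. Between the patterns r was lower, from −0.27 for Timp1 with Timp4 to 0.22 for Timp2 with Timp3. NC rat 2 and running rat 3, the rats lowest in Timp1 and Timp2, also had the lowest leukocyte marker sums (929 and 660 CPM). NC rat 4, the highest in Timp3 and Timp4, had the highest sum (3958 CPM). Most of that sum was Lyz2 (3075 CPM), and NC rat 4 was highest in no other leukocyte marker. Running rat 3 was the lowest in Reck too, and it had the highest muscle marker sum. The part of other cells in these levels was not tested. These values share libraries and depth, include the difference between the groups, and are given as a description over 8 rats.

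**Figure D5:**
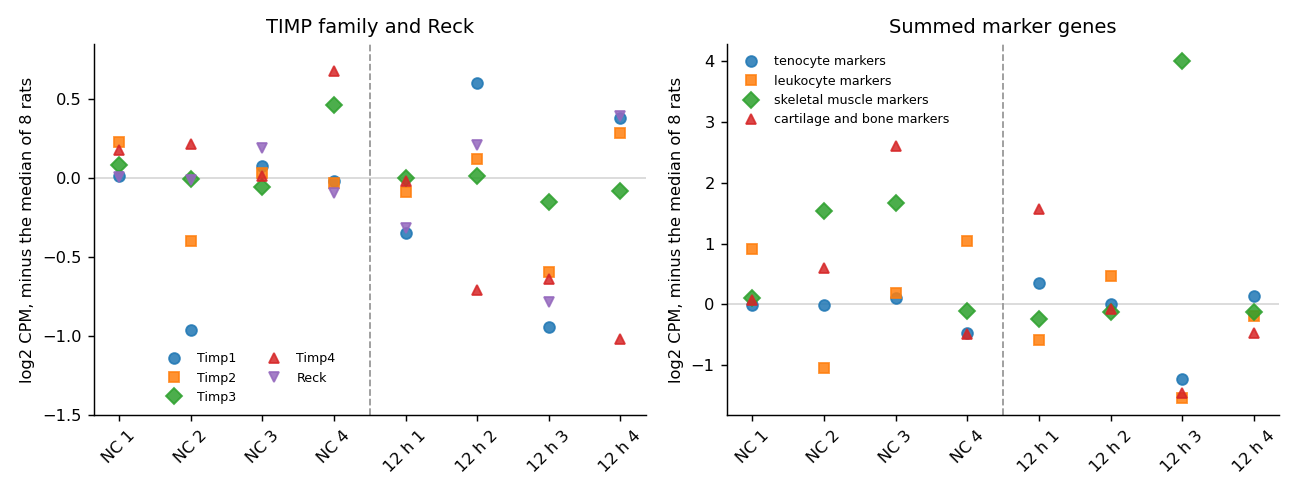
Log2 CPM of each member (left) and of summed marker genes (right) in each rat, minus the median of the 8 rats, with NC rats left of the dashed line and 12 hours p.r. rats right of it. Timp1 and Timp2 are low in NC rat 2 and running rat 3, where the leukocyte marker sums are lowest. The muscle marker sum of running rat 3 is far above the rest.

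Among 10912 genes with a mean of at least 5 CPM, the 3 protein-coding genes closest in pattern to each member over the 8 rats were named by Pearson's r of log2 CPM. For Timp4 they were Spata5l1 (r = 0.972), Lrrc8c (0.968), and the clock gene Per1 (0.963), whose log2 fold changes were −0.23, −0.40, and −0.70 beside −0.84 for Timp4. Timp3 was closest to Resf1 (0.945), Hipk1 (0.937), and Fbh1 (0.935), with Timp4 at rank 318. Timp3 in turn was at rank 329 for Timp4. Timp1 was closest to Cyth4 (0.970), Rhog (0.968), and Metrnl (0.963), with Timp2 at rank 62. For Timp2 the closest genes were Adam15 (0.980), Cyba (0.978), and Dpp7 (0.959), the first of them in the ADAM list. Reck was closest to Ltbp2 (0.984), Srsf9 (0.984), and Ift80 (0.949), with Timp2 at rank 216. With 8 points and many genes compared, high values of r arise readily, and they are given as a description with no test.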

How the data were processed

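The right Achilles tendons of 4 NC rats and 4 rats at 12 hours p.r. were sequenced as stranded polyadenylate mRNA libraries. Groups were taken from the sample labels, and rat sex, age, and running settings from the methods of the study. The authors used HISAT2 2.1.0 for alignment (Rnor_6.0) and featureCounts 1.6.3 for counting on Ensembl genes. Deposited counts are unnormalized whole reads. The authors also deposited FPKM values, in which the scaling per rat matched DESeq2 size factors. A table of the authors' own comparison (DESeq2 1.30.1, log2 fold changes and p-values) was deposited and not used here. Strand and multiple matches in counting are not given in the sources used here.

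Genes were kept by filterByExpr of edgeR 4.0.16, scaled by TMM, and tested with glmQLFit and glmQLFTest in R 4.3.3. The SE was taken from the F statistic. CPM used TMM-scaled library sizes. Alternatives were DESeq2 1.42.0, other factors and filters, limma 3.58.1 on log2(FPKM + 1) and log2(FPKM + 0.1), a replicate block, and leaving out rats. The test code was checked on simulated counts of 13937 genes, 200 of them changed. There edgeR called 138 genes, 6 of them unchanged, and DESeq2 called 181, 23 of them unchanged. Sequences and gene overlaps came from RefSeq tables of GRCr8 by symbol, in which all 5 members matched, and no coordinates of Rnor_6.0 are given.

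The members, 16 gene lists, and tests were chosen with earlier results of these data known. The result of 1 marker list is not reported here. Named genes were the members, genes of each list called by edgeR or DESeq2 after adjustment, otherwise up to 5 genes with the smallest unadjusted p under 0.05, the 3 most abundant genes in NC of the MMP, ADAM, and ADAMTS lists, the 3 genes closest in pattern to each member, and genes overlapping a member. Any other gene, such as Adamts9, Adamts18, Adamts19, Tie1, Emcn, Cd63, Mmp9, or Mmp13, was named after its values were seen.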

Additional observations from a re-analysis of the deposited data

Results flagged for a closer look

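Among the NC rats, Timp1 in NC rat 2 stood apart at 67.3 CPM, where its 3 group mates had 130 to 138 CPM, with a gap to the nearest rat of 0.912 of the range of the group on a log2 scale. Of the 10 groups of 4 rats searched (5 genes in 2 groups), chance would set about 0.5 apart by this criterion, and 1 was found. The same rat had the lowest leukocyte marker sum of the NC group (929 CPM), and the part of this in its Timp1 level was not tested. Without NC rat 2, the log2 fold change of Timp1 was 0.02 in place of 0.21.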

How the results depend on the processing

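Timp4 kept its direction and an unadjusted p under 0.05 in all 18 alternatives, with log2 fold changes of −1.07 to −0.69, and its adjusted p went under 0.05 only with DESeq2 (log2 fold change −0.85). Timp3 stayed negative in all 18 (−0.25 to −0.06) with no call. The sign of Timp1 turned without 12 h p.r. replicate 2 (−0.037), with −0.04 to 0.43 over the rats left out. Timp2 turned in 6 alternatives, with −0.13 to 0.14 over the rats left out, and was 0.16 without NC replicate 3 and 12 h p.r. replicate 3 together and 0.036 without NC replicate 2 and 12 h p.r. replicate 3 together, the latter pair chosen after seeing the data. Reck ran from −0.27 to 0.099 over the rats left out and was 0.16 and 0.086 without these pairs.

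The 1 gene called after adjustment became 96 with DESeq2 and 0 with limma at either pseudocount, with the replicate block, without each rat, and without either pair. Genes at an unadjusted p under 0.05 ran from 879 to 1580 over the rats left out. The MMP genes at that threshold were 1 with limma at either pseudocount, 0 with the replicate block, and 0 to 2 over the rats left out. Replicate numbers did not pair the rats. Correlations of deviations were 0.0699, −0.193, 0.116, and 0.0818, and 2 of 8 rats correlated best with their own number. With the block, Timp4 was −0.86 (adjusted p = 0.676). Other scalings moved the median of all genes by less than 0.03. Depth limits genes of few reads, such as Adamts19 and Syn2, and 4 rats a group leave intervals of about ±0.5 on the log2 scale for Timp2 and Reck.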
